A study of Saccharomyces cerevisiae with 2 samples.

Results

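The comparison described here set RNA of an msg5 deletion strain of budding yeast, Saccharomyces cerevisiae, against RNA of its wild type, BY4741, with no pheromone added to either culture. It was 1 of 2 comparisons in the series. The other one added alpha factor to the deletion strain, and its values are not used here, since neither their direction nor their log base is stated. BY4741 is a laboratory strain of mating type a, and per the labels both strains were cultured in YPD, a rich medium, at 24 °C and 200 rpm. Overnight cultures were diluted to an optical density of 0.2, grown for 2 h 30 min and collected 2 h after that. The sources used here do not say how MSG5 was removed or whether more than 1 isolate was used. Each value rested on 4 two-colour arrays from 2 biological samples with dyes swapped, which the authors reduced to a single log2 ratio of deletion over wild type.

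All features with a value, other than the 2 control rows, were taken, which gave 5308 of the 6207 gene features in the table. Averaging features of the same gene gave 4970 genes. There was 1 value per gene, so no difference below was tested against replicate spread, and precision is limited by how few arrays there were. Genes are described as higher or lower in the deletion past a line of 2-fold (1 or -1 on the log2 scale) or a wider line of 1.5-fold. Because the arrays held bulk RNA, a change in the share of cells at some stage of the cycle and a change in RNA per cell cannot be told apart.

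Msg5 is a dual-specificity phosphatase that removes phosphate from mitogen-activated protein kinases (MAPKs). Its substrates include Fus3, the MAPK of mating, and Slt2, which ends the kinase chain of cell wall integrity. In a cells, pheromone binding to a G protein coupled receptor activates Fus3 and Kss1, which act on the transcription factor Ste12 and raise genes of agglutination, cell fusion and nuclear fusion. Stress on the cell wall is sensed by membrane proteins that act through Rho1 and Pkc1 on a kinase chain ending in Slt2, which activates the transcription factor Rlm1 and genes of wall building.

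The spread of all genes was narrow around a small negative value. The gene median was -0.07 and the lower and upper quartiles were -0.21 and 0.07. In all, 94.1% of genes lay within 1.5-fold. At 2-fold 39 genes were higher, which is 0.785% of those measured, and 13 were lower, which is 0.262%. At 1.5-fold the sides were nearly even, with 141 genes higher (2.84%) and 153 lower (3.08%). Centring on the gene median turned that split into 182 higher and 108 lower. Only 3 genes were at least 4-fold higher, FIG1, FIG2 and AGA1, and 1 gene was at least 4-fold lower, MSG5. These counts leave out 312 features with a value that matched no gene of the R64 RefSeq table. Among those, YIL082W (2.97) and YIL080W (2.16) were also past 4-fold higher and YNL198C (-2.03) past 4-fold lower.

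The size of error could be seen only indirectly. For 25 genes the table held more than 1 feature. Their values differed by a median of 0.20, with a pooled standard deviation of 0.22, and lay on the same side of 0 for 16 of the 25 genes. The largest difference was 0.61, for MRC1, a checkpoint protein of replication. The control features stood at 0.19 (Arabidopsis) and -0.01 (3XSSC). A difference between genes of about 0.20 is therefore no larger than the usual difference between features of 1 gene.

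The targeted gene, MSG5, had the lowest value of all features, -2.51, equal to 5.71-fold lower. Its neighbours on chromosome XIV were near 0, with VAC7 at -0.19 on one side and COX5A at -0.08 on the other. Of the marker genes that BY4741 lacks, HIS3 had a value of 0.30 and LEU2 of 0.09, and MET17 and URA3 had none. Among genes that mark a cells, the receptor gene STE2 stood at 0.11, the exporter gene STE6 at 0.10 and MFA2 at -0.10. The other a markers were higher: ASG7 (1.87), AGA2 (1.26), MFA1 (1.03) and BAR1 (0.65). Of the genes that mark alpha cells, SAG1 stood at 1.17 and MF(ALPHA)2 at 0.42, and STE3 and MF(ALPHA)1 had no value. Of 10 meiotic or diploid genes 8 had no value, and the others, IME1 and DMC1, stood at -0.15 and 0.28. A ratio gives no level, so these values do not show which cell type was present.

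**Figure D1:**
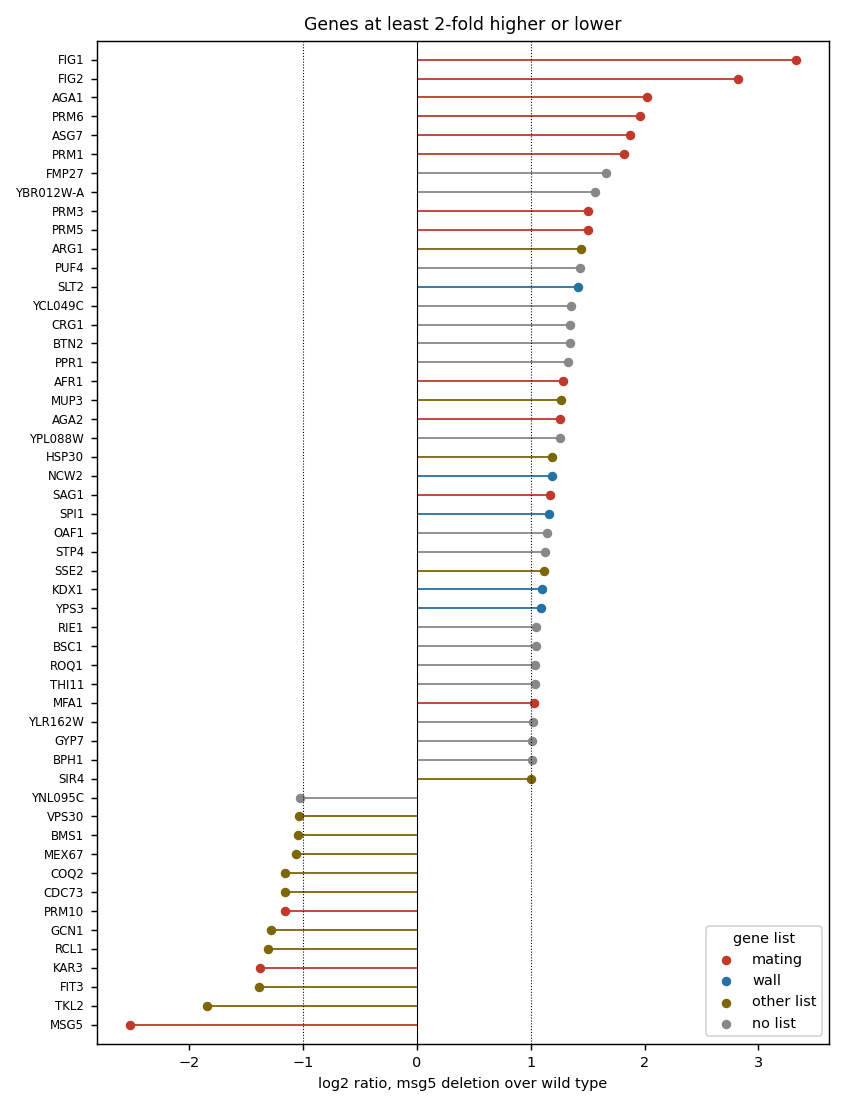
Log2 ratio of deletion over wild type (horizontal axis) for each of the 52 genes at least 2-fold higher or lower, ordered by value and coloured by gene list. Dotted lines mark 2-fold. Features that matched no gene are not shown. Among the genes shown, mating genes take the 6 highest places, from FIG1 at 3.33 to PRM1 at 1.82, and MSG5 is lowest at -2.51.

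Genes of mating held the top of the ranking of matched genes. Of 90 measured genes in the mating lists, with those of calcium and filamentous growth counted in, 12 were past 2-fold higher, and PRM10, KAR3 and MSG5 itself made 3 past 2-fold lower, against 0.785% and 0.262% of all genes. The lists were chosen with earlier results of these data known, so the counts are descriptions. List medians were 1.64 for agglutination, 1.24 for cell fusion, 0.04 for nuclear fusion and 0.04 for the signalling chain.

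Surface adhesion was the role in which every measured gene passed 2-fold. FIG2, which encodes a cell wall adhesin made during mating, had a value of 2.82, or 7.04-fold higher. AGA1 encodes the wall anchor of a-agglutinin and was 4.05-fold higher (2.02). AGA2, the subunit of a-agglutinin that binds the partner cell, was at 1.26. SAG1 encodes alpha-agglutinin, the partner protein made by alpha cells, and stood at 1.17. MF(ALPHA)2, an alpha-factor gene that is likewise specific to alpha cells, stood at 0.42. Thus the measured genes of both mating types' agglutinins were higher in the deletion.

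In cell fusion the values ran from the highest gene on the arrays to one at 0. FIG1, a membrane protein needed for calcium entry and fusion during mating, had a value of 3.33, or 10.1-fold higher. PRM1, which acts in the fusion of plasma membranes, was 3.53-fold higher (1.82). FUS1, a membrane protein at the tip of the mating projection, was past 1.5-fold at 0.66. RVS161, a membrane-bending protein that acts in fusion as well as in endocytosis, stood at -0.01, and FUS2 had no value. Other genes of calcium were less high than FIG1. CMK2, a calmodulin-dependent kinase, stood at 0.88, RCN2, a calcineurin regulator, at 0.60, and CRZ1, the transcription factor that calcineurin activates, at 0.39. Of the 15 measured genes of calcium and calcineurin, 3 were past 1.5-fold higher, FIG1 among them, and none lower, against 2.84% and 3.08% of all genes. MID1, a subunit of the main calcium channel, stood at -0.40.

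Genes of nuclear fusion lay on both sides. PRM3, which acts in fusion of the nuclear envelopes, was 2.84-fold higher. KAR4, a transcription factor of this step, stood at 0.88 and KAR5, also of envelope fusion, at 0.43. The kinesin gene KAR3 was 2.59-fold lower (-1.37). Kar3 works with either of 2 partner proteins, Cik1 and Vik1, and their genes differed: VIK1, whose product serves at the spindle pole, stood at -0.64, and CIK1, the partner used in mating, at -0.04. KAR1, a spindle pole body gene, stood at -0.67. The list of 10 measured genes thus had 2 members past 1.5-fold higher and 3 past 1.5-fold lower, with a median of 0.04. Over all genes the shares were 2.84% and 3.08%.

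The PRM genes, named as pheromone-regulated membrane proteins, had a median of 0.56. Of 9 measured members 4 were past 1.5-fold higher and 1 past 1.5-fold lower, against 2.84% and 3.08% of all genes. PRM6 (1.96), PRM1, PRM3 and PRM5 were past 2-fold higher. PRM8 (0.56), PRM9 (0.54) and PRM4 (0.43) were higher by less than 1.5-fold, and PRM7 stood at -0.18. PRM10 was the exception, at -1.16 or 2.23-fold lower. Its reading frame overlaps that of YJL107C in the R64 gene table, and YJL107C stood at -0.07.

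**Figure D2:**
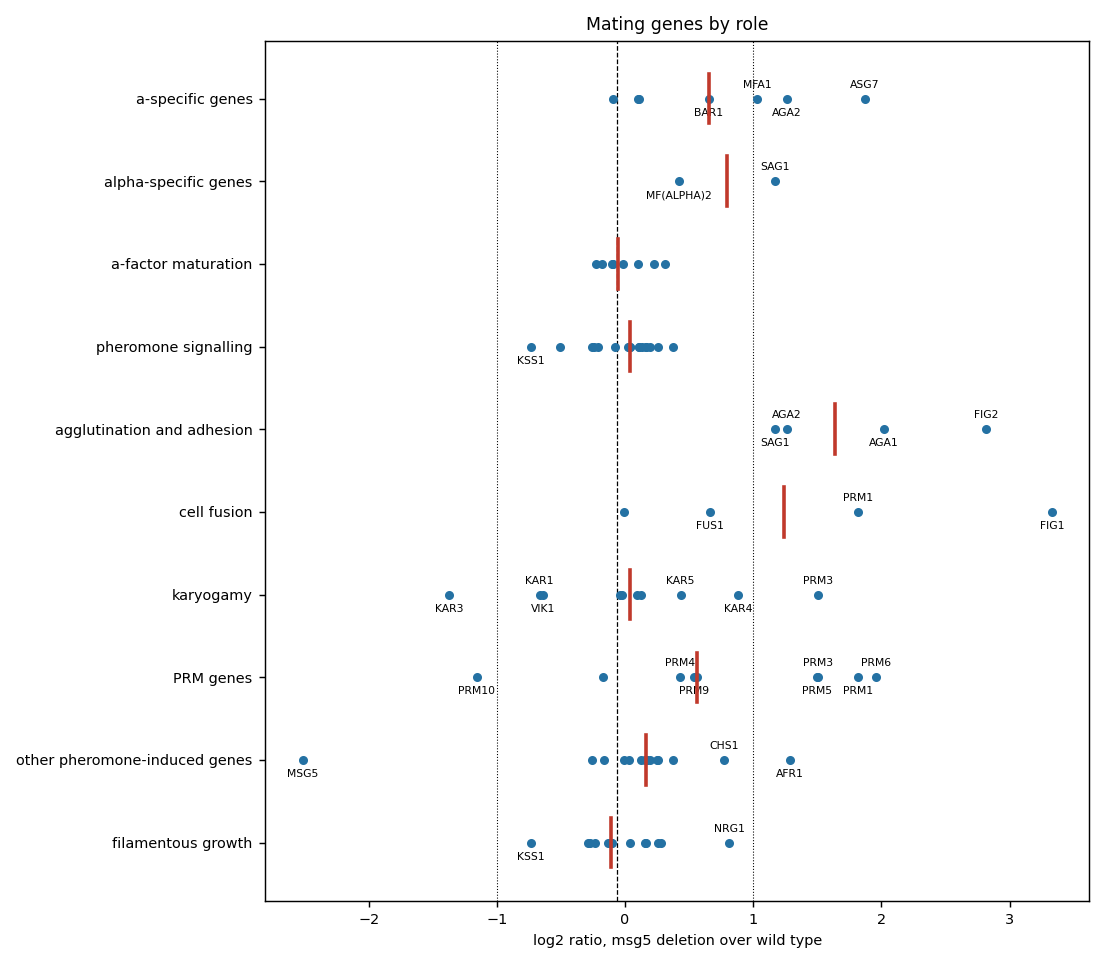
Log2 ratio of deletion over wild type (horizontal axis) for each measured member of 10 mating lists, 1 point per gene, with the list median as a red bar. The dashed line is the gene median and dotted lines mark 2-fold. Agglutination genes all lie past 2-fold, while pheromone signalling genes lie between -0.73 and 0.38.

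Among 7 genes expressed only in a cells, values ran from -0.10 to 1.87, and 4 were past 1.5-fold higher, against 2.84% of all genes. ASG7, an a-specific gene whose product dampens signalling after mating, was 3.65-fold higher (1.87), and AGA2 and MFA1 (1.03), a gene for a-factor, were past 2-fold. BAR1, a protease that degrades alpha factor, stood at 0.65. MFA2, the other a-factor gene, stood at -0.10, STE2 and STE6 at about 0.1. None of the 8 genes of a-factor maturation was past 1.5-fold, and these ran from -0.22 for RAM1 to 0.31 for AXL1. RAM1 encodes a subunit of the farnesyltransferase and AXL1 a protease that trims the a-factor precursor.

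Within the signalling chain none of 18 measured genes was past 1.5-fold higher and 1 was past 1.5-fold lower. Over all genes the shares were 2.84% and 3.08%, so counts in so short a list say little. FUS3 stood at 0.38, SST2, which shuts the G protein off, at 0.25, and FAR1, which arrests the cycle, at 0.19. The G protein genes GPA1, STE4 and STE18 lay at 0.03, 0.02 and -0.08. KSS1, the MAPK shared with filamentous growth, was the one member past 1.5-fold, at -0.73. The kinase gene STE7 stood at -0.50 and STE12 at -0.26, while the scaffold gene STE5 and the kinase gene STE11 had no value. Other genes known to be induced by pheromone were led by AFR1, which shapes the mating projection, at 1.29, and CHS1, the repair chitin synthase, at 0.77. KTR2, GIC2 and MSB2 are on the same list but were not past 1.5-fold. Of 14 measured filamentous growth genes, NRG1, a glucose repressor, stood at 0.81 and no other was past 1.5-fold higher. KSS1 was the 1 past 1.5-fold lower, and the shares over all genes were the same 2.84% and 3.08%.

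Genes of the cell wall were the next large group. Of 102 measured genes in the wall lists, 21 were past 1.5-fold higher and 3 past 1.5-fold lower, against 2.84% and 3.08% of all genes. The 3 lower genes count MSG5 itself, since the phosphatase list is among the wall lists. The others were YPS6 and PLB1, given below. The highest wall genes were output genes of the pathway. PRM5, a membrane protein induced by wall stress as well as by pheromone, was 2.83-fold higher. SLT2 was 2.67-fold higher (1.42), and KDX1, its kinase relative, 2.15-fold higher (1.10). NCW2 (1.19) and SPI1 (1.16), which encode wall proteins, and YPS3 (1.10), an aspartyl protease of the yapsin family, were past 2-fold too. Of 27 measured output genes, 15 were past 1.5-fold higher and 24 lay above the gene median, a side that 49.8% of all genes were on. The list holds genes known to have been high in these arrays, so its count is not independent evidence of its direction.

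Output genes were not all high. GSC2, the inducible glucan synthase subunit, stood at -0.33 while FKS1, the subunit used in growth, stood at 0.49. CHS3, of the main chitin synthase, stood at -0.05, and YPS6, another yapsin gene, was 1.52-fold lower (-0.61). BGL2, a glucan-modifying enzyme, stood at 0.07 and PIR1, of the heat-resistant wall proteins, at 0.03. Their relatives HSP150 and PIR3 stood at 0.63 and 0.51.

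Upstream of the kinases, 2 of the 6 sensor genes were past 1.5-fold higher, against 2.84% of all genes. They were MTL1 (0.76) and MID2 (0.62), which belong to the same family. The WSC family did not go with them, with SLG1 (WSC1) at 0.01, WSC2 at -0.03, WSC3 at -0.35 and WSC4 at -0.53. Around Rho1, the activator gene TUS1 (0.80) and the inhibitor gene LRG1 (0.75) were both past 1.5-fold higher, while RHO1 stood at 0.12 and PKC1 at 0.10. The kinase genes between them and SLT2 were not high: BCK1 and MKK2 both stood at -0.24, and MKK1 had no value. RLM1 was 1.73-fold higher (0.79), whereas SWI4, a transcription factor that Slt2 also acts on, stood at -0.06.

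Among 12 phosphatase genes that act on MAPKs or are related to those that do, PTP2 was the one past 1.5-fold higher, at 0.90. Over all genes 2.84% were past that line. PTP3, the relative of PTP2, stood at -0.17. SDP1, the closest relative of MSG5, stood at 0.20. The other 8 members apart from MSG5 lay between -0.20 (PTC2) and 0.16 (PTP1).

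Structural proteins and building enzymes of the wall are given next, beside 2.84% of all genes past 1.5-fold higher. Of 23 measured genes for wall proteins with a lipid (GPI) anchor, 7 were past 1.5-fold higher: NCW2, SPI1, SED1 (1.00), CWP1 (0.94), YPS1 (0.86), CCW14 (0.59) and PST1 (0.59). SED1, at 0.9964 before rounding, fell just short of 2-fold. The phospholipase genes PLB1 (-0.80) and PLB2 (-0.58) were the lowest of that list. Of the 7 higher genes, all but CCW14 are also on the output list, so this count is not independent of the one given there. In chitin synthesis and crosslinking, 2 of 15 measured genes were past 1.5-fold higher, CHS1 (0.77) and GFA1 (0.61). GFA1 acts in the first step of chitin precursor synthesis, and PCM1, of a later step, stood at 0.48. None of 18 measured genes of glucan synthesis and remodelling was past 1.5-fold in either direction.

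**Figure D3:**
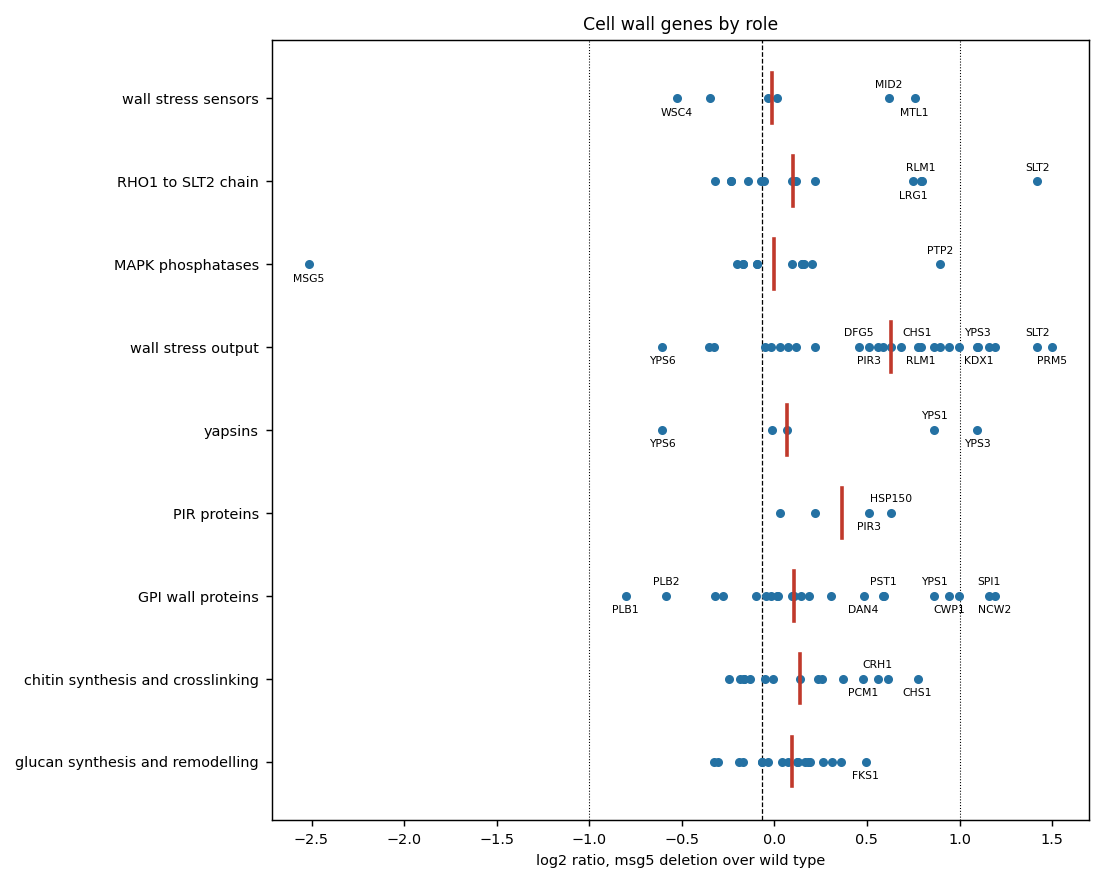
Log2 ratio of deletion over wild type (horizontal axis) for each measured member of 9 wall lists, 1 point per gene, with the list median as a red bar. The dashed line is the gene median and dotted lines mark 2-fold. Of the output genes, 15 of 27 are past 1.5-fold higher, while no glucan gene reaches that line.

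Among storage sugar and chaperone genes some members were high and most were within 1.5-fold. Past 1.5-fold higher were 3 of 8 measured trehalose genes, 1 of 6 glycogen genes and 3 of 25 chaperone genes, against 2.84% of all genes, and none was past 1.5-fold lower. All 8 measured trehalose genes lay above the gene median, led by TPS2 (0.94) and TSL1 (0.91) of trehalose synthase. In glycogen synthesis GSY2 stood at 0.64 and GLC3, the branching enzyme, at 0.38, while GLG2, a primer of synthesis, stood at -0.26. Of 25 chaperone genes, HSP30, which restrains the plasma membrane proton pump, was 2.28-fold higher (1.19), SSE2 2.17-fold higher (1.11) and HSP42, a small chaperone, 1.78-fold higher (0.83). HSP104 (-0.12), HSP26 (-0.08) and HSP12 (0.02) were not high, while HSP78 (0.50), SSA4 (0.41) and HSP31 (0.32) were higher by less than 1.5-fold. Of the 25 genes, 19 lay above the gene median and 6 below. A list of general stress genes, which shares members with those above, had a median of 0.30. Of its 28 measured genes, 8 were past 1.5-fold higher and 1 past 1.5-fold lower, against 2.84% and 3.08% of all genes. BTN2, which gathers misfolded proteins, stood at 1.34 and ROQ1, a stress-induced regulator of protein breakdown, at 1.04.

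Isozymes of the same reaction often had unlike values, and 30 pairs of related genes were set side by side. SSE2 stood 1.04 above SSE1, HXK1 0.82 above HXK2, SOL4 0.85 above SOL3, TSL1 0.63 above TPS3, PGM2 0.56 above PGM1 and SSA4 0.51 above SSA2, on the log2 scale. In each of these pairs the first gene is the one known as induced by stress or by poor carbon sources. Each difference is more than the pooled standard deviation of 0.22 between features of a gene. That value describes single features and not a difference between 2 genes. Features of 1 gene differed by up to 0.61, which is more than the PGM2 and SSA4 differences. GND2 and GND1 (a difference of 0.27), and CYC7 and CYC1 (0.17), were closer to the pooled standard deviation. So were NTH1 and NTH2 (0.22), COX5B and COX5A (0.17), ENO1 and ENO2 (0.06), and GPD1 and GPD2 (-0.03). TKL2, the minor transketolase that is also known as a stress gene, went the other way: it was 3.58-fold lower (-1.84), while TKL1 stood at 0.17. The pairs were picked after values had been seen and carry no test. None of 8 measured osmotic stress genes was past 1.5-fold. Nor was any of 13 genes of the high osmolarity pathway or 14 of the unfolded protein response. Of all genes 94.1% lay within 1.5-fold, so lists this short say little.

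Respiration lay slightly high as a whole. Of 36 measured genes of the respiratory chain and ATP synthase, 32 lay above the gene median, a side that 49.8% of all genes were on. The list median was 0.19. HAP4, the activator of respiration genes, was the one past 1.5-fold (0.64), against 2.84% of all genes past 1.5-fold higher. Among tricarboxylic acid cycle genes SDH4 stood at 0.54 and KGD1 at 0.43. COQ2, of coenzyme Q synthesis, was 2.22-fold lower, while the other 9 genes of that pathway lay between -0.28 and 0.18. The respiratory list median of 0.19 is no larger than the usual difference between features of 1 gene. That difference is not the error of a median over 36 genes, and the shift was not tested.

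Arginine genes held a few high members without a shift of the whole list, whose median was 0.05. Of 14 measured, 3 were past 1.5-fold higher and none lower, against 2.84% and 3.08% of all genes, and 7 lay above 0. ARG1, of argininosuccinate synthesis, was 2.72-fold higher (1.44), and ARG4, of the last step, stood at 0.67. The repressor genes ARG80, ARG81 and ARG82 lay at -0.18, -0.27 and -0.26, and CAR1, of arginine breakdown, at 0.30. Beyond arginine, 39 of 49 measured amino acid synthesis genes lay above the gene median, but ARO1 (0.77) was the one past 1.5-fold. GCN1, an activator of the kinase Gcn2 in amino acid starvation, was 2.42-fold lower (-1.28). Its partner gene GCN20 stood at 0.10, GCN2 at 0.39 and GCN4 at 0.06.

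Iron genes had the lowest median of the 66 lists with at least 5 measured members, -0.37. FIT3, a wall mannoprotein that binds siderophores, was 2.60-fold lower (-1.38). FIT2 (-0.87), the siderophore transporter gene ARN2 (-0.82), TIS11 (-0.79), which destabilises mRNAs when iron is scarce, and FTR1 (-0.75), the iron permease, were past 1.5-fold lower. FET3, the oxidase that works with Ftr1, stood at -0.07. Of 19 measured members 5 were past 1.5-fold lower, none was past 1.5-fold higher, and 15 lay below the gene median, with FET3 at it. Over all genes 3.08% were past 1.5-fold lower and 2.84% past 1.5-fold higher. Phosphate genes were lower to a lesser degree, with the transporters PHO84 at -0.82 and PHO89 at -0.64, but the phosphatase PHO5 stood at 0.03 and PHM8, a nucleotide phosphatase, at 0.74. None of 6 measured zinc genes was past 1.5-fold.

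Growth lists had few genes past a line: of 313 measured genes 6 were past 1.5-fold lower and 1 past 1.5-fold higher, fewer than the 3.08% and 2.84% of all genes. In assembly of the small ribosomal subunit, 41 of 52 measured genes lay below the gene median. RCL1 (-1.31) and BMS1 (-1.04), whose products bind each other in that assembly, were the members past 2-fold, and UTP8 stood at -0.74. UTP20, a scaffold of the same particle, went the other way at 0.83. In assembly of the large subunit 44 of 54 measured genes lay below the gene median, yet none was past 1.5-fold. Ribosomal protein genes were spread about the gene median, with 35 of 52 genes of the small subunit and 47 of 79 of the large subunit above it. RPL26B, at -0.87, was the one past 1.5-fold.

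In the cell cycle lists, 10 of 132 measured genes were past 1.5-fold lower and 3 past 1.5-fold higher, against 3.08% and 2.84% of all genes. All 9 measured histone genes lay below the gene median, between -0.39 (HHT1) and -0.07 (HTA1). Of 18 measured G2/M genes, 16 lay below it, with ASE1, a spindle midzone protein, at -0.78, HST3 at -0.66 and IQG1, of the cytokinetic ring, at -0.65, but the cyclin gene CLB2 stood at -0.13. In replication, CDC6 (-0.83) and ORC6 (-0.76) of origin licensing were past 1.5-fold lower, and MCM2 (0.89), a subunit of the replicative helicase, was past 1.5-fold higher, while MCM3, MCM4, MCM5 and MCM7 lay between -0.28 and 0.08. The cyclin gene CLN3, outside these lists and named after its value was seen, stood at 0.56. Daughter cell separation genes ran from -0.41 to 0.09 with none past 1.5-fold.

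**Figure D4:**
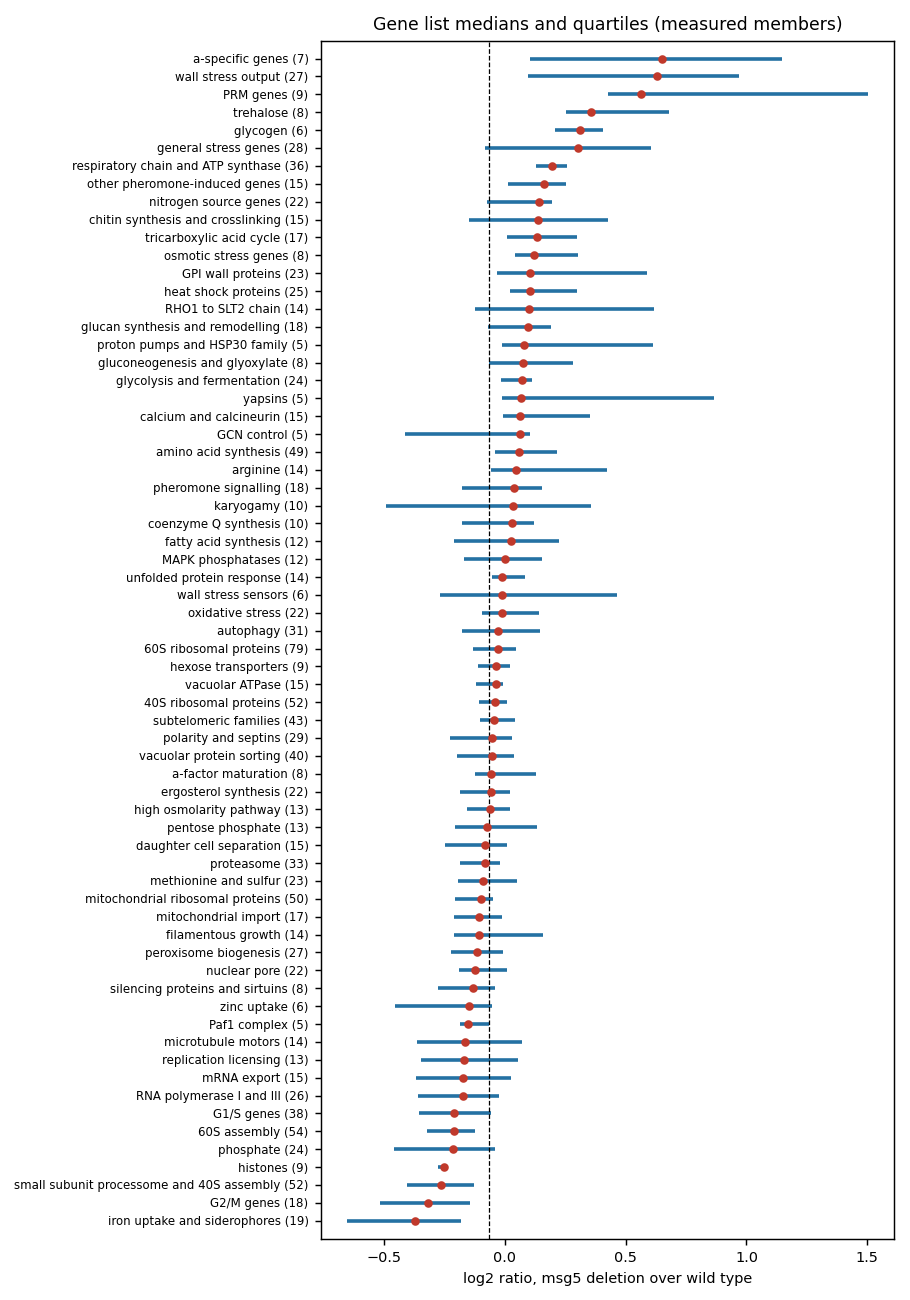
Median (red point) and 25th to 75th percentile (blue bar) of log2 ratios of deletion over wild type for the 66 gene lists with at least 5 measured members, with the number measured in brackets. The dashed line is the gene median of -0.07. The a-specific, wall output and PRM lists have medians above 0.5, and iron genes have the lowest, at -0.37.

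Of the 39 genes at least 2-fold higher, 17 were in a mating or wall list, 5 in another list and 17 in none. Of all 4970 measured genes, 188 were in a mating or wall list and 3669 in none. Those in none with a known role were diverse. FMP27, a very large protein, stood at 1.66, PUF4, an RNA-binding protein, at 1.44, CRG1, a methyltransferase, at 1.35, PPR1, the activator of pyrimidine genes, at 1.33 and OAF1, of fatty acid use, at 1.15. MUP3, a methionine transporter on the sulfur list, stood at 1.26. SIR4, of silent chromatin, stood at 1.00 while SIR2 and SIR3 stood at -0.26 and -0.15. STP4 (1.12), RIE1 (1.05), BSC1 (1.05), GYP7 (1.02), an activator of a vacuolar GTPase, and BPH1 (1.01) were in no list. BPH1 fell to 0.96 after adjustment for table position. THI11, at 1.04, belongs to a family of near-identical genes for thiamine precursor synthesis, whose copies an array cannot separate well. Its relative THI13 stood at 0.60.

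Of the 13 lower genes, those not yet named were CDC73, MEX67, VPS30 and YNL095C. CDC73, of the Paf1 complex, was 2.23-fold lower (-1.16), while the other Paf1 genes CTR9, LEO1, RTF1 and PAF1 lay between -0.19 and 0.13. MEX67, the mRNA export receptor, stood at -1.06 and MTR2, which forms a dimer with it, at -0.11. VPS30, of autophagy and vacuolar sorting, stood at -1.03. MEX67, BMS1, VPS30 and YNL095C no longer reached 2-fold once values were centred on the gene median.

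Loci known here only by a systematic name were past 1.5-fold higher in 17 of 362 cases, or 4.70%, against 2.69% of 4608 genes with a symbol. Near-identical copies among these loci were not set apart, so the 17 may not be separate signals. Those past 2-fold higher were YBR012W-A (1.57), YCL049C (1.35), YPL088W (1.26) and YLR162W (1.02). The next were YJR026W (0.89) and YMR046C (0.88). A further 312 features with a value matched no gene of the R64 table. Of these, YIL082W (2.97) and YIL080W (2.16), which carry neighbouring systematic names, were both higher than AGA1, and YIL082W was also higher than FIG2. YCRX18C (1.88), YML048W-A (1.23) and YFL-TYA (1.05) were past 2-fold higher, and YNL198C (-2.03) and YDR401W (-1.42) past 2-fold lower. At the wider line 16 of the 312 were lower (5.13%) and 10 higher (3.21%).

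Genes were also set beside their neighbours on the chromosome, using gene order in the R64 table and strand from the systematic names. Chromosomes I and III had the medians farthest from the gene median, both 0.09 above it after rounding. Next to genes at least 2-fold higher, 61 neighbours were measured, of which 2 were past 1.5-fold higher and none lower, close to the 2.84% of all genes past the higher line. Those were YPS1, in tandem with YPS3, and RLM1, which shares a divergent promoter region with YPL088W. The measured neighbours of FIG1, FIG2 and SLT2 were all within 1.5-fold.

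Next to the lower genes the picture differed by orientation. Of 6 measured neighbours whose transcription runs towards the lower gene (convergent), 5 were past 1.5-fold lower: FIT2 beside FIT3, MRX15 (-0.79) beside COQ2, MDM12 (-0.74) beside RCL1, SAR1 (-0.61) beside BMS1 and VPS36 (-0.60) beside CDC73. The sixth was TAZ1 (0.18) beside KAR3. Of 12 measured neighbours in divergent or tandem orientation none was past 1.5-fold lower. Over the whole genome, 14.1% of genes past 1.5-fold lower in a convergent pair had a partner past that line as well, against 3.17% of all genes in such pairs. The same share was 1.92% for tandem pairs (2.62% of all genes in them) and 3.28% for divergent pairs (2.89%). Among genes past 1.5-fold higher it was 0 of 55 in convergent pairs (2.46% of all genes in them), 5.17% in tandem pairs (2.92%) and 4.55% in divergent pairs (2.09%). The convergent share of 14.1% rests on the same 5 pairs named above, so it repeats them. All these counts were made after the values were seen and carry no test.

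**Figure D5:**
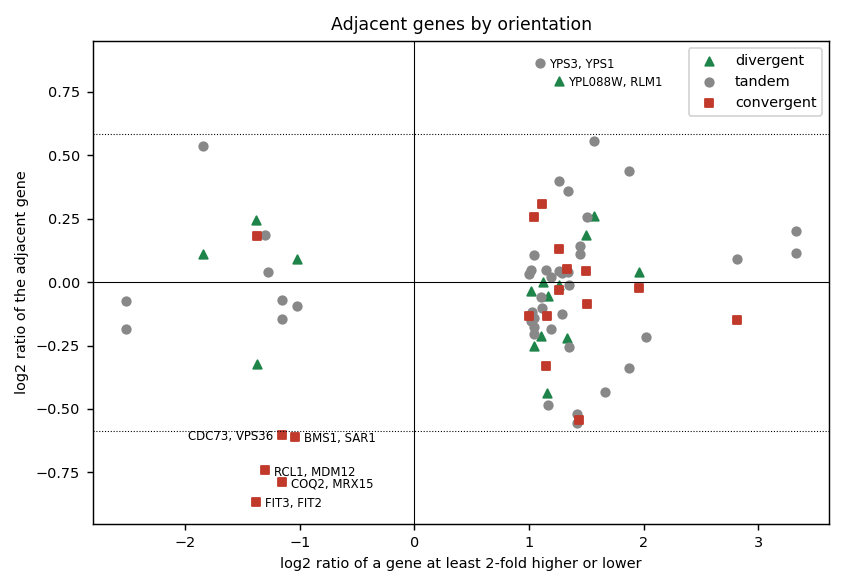
Log2 ratio of each gene at least 2-fold higher or lower (horizontal axis) against that of each measured adjacent gene (vertical axis), with shape and colour for orientation and dotted lines at 1.5-fold. The 5 labelled points at lower left are convergent pairs in which both genes are lower; of the neighbours of higher genes, YPS1 and RLM1 alone are past 1.5-fold.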

How the data were processed

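Per the labels, total RNA was labelled with Cy3 or Cy5 after reverse transcription, hybridised to two-colour arrays, and scanned and segmented with GenePix Pro 5.0. The authors deposited 1 log2 ratio per feature and comparison, condensed from 4 arrays of 2 biological samples with swapped dyes. Normalization, filters and build: not given in the sources used here. Base 2 was read from the values, since all 5310 (100%) fell, to within 5.5e-05, on the base 2 logarithm of a ratio given in steps of 0.001; evenly spread values would do so in 7.52% of cases. Direction was taken from the sample's title and the low value of MSG5, so that value is no independent check.

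Names came from the R64 RefSeq table, used for symbols, gene order and, in an alternative, length: 5654 features matched by locus tag, 58 through an older name and 495 not at all. Features of a gene were averaged. Of the gene features, 14.5% had no value. No test was possible with 1 value per gene, so rules of size (2-fold and 1.5-fold) and 73 gene lists were used. Members and lists were chosen with earlier results of these data known. Named genes were MSG5, its neighbours and strain markers, every gene past 2-fold, members of the mating, wall and phosphatase lists, and the members of other lists farthest from the gene median or opposite to it. A few genes outside that rule were named after their values were seen, as partners or relatives of named genes. Python 3.11.15, pandas 2.3.3, numpy 2.4.6 and scipy 1.17.1 were used. Single arrays, spot intensities, promoter sequences and protein sequences were not analysed here.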

Additional observations from a re-analysis of the deposited data

How the results depend on the processing

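Each result has 1 condensed value, so no array or biological sample could be left out. No paired analysis was possible because each comparison is a single column. Centring, table position, first feature, genes under 500 bases, overlapping genes and unmatched features were varied. The count of genes at least 2-fold higher was 33 to 47 and that of genes at least 2-fold lower 9 to 15. At 1.5-fold the counts were 128 to 182 higher and 108 to 154 lower. All these counts stayed within 1.5 times the main ones. Of 39 higher genes all were kept after centring, with 8 gained, and of 13 lower genes 9 were kept. Medians of 66 lists were recomputed and moved by less than the pooled standard deviation between features of a gene, with these exceptions. The a-specific median fell from 0.65 to 0.38 without short genes or without its farthest member, ASG7. The PRM median was 1.03 without overlapping genes, which removes PRM10. As means in place of medians, yapsins stood at 0.28, calcium and calcineurin genes at 0.36, GCN control genes at -0.23 and the proton pump and HSP30 family at 0.33. The pooled standard deviation describes single features, so staying within it does not fix a list's side. Some lists changed side of the gene median as means, or without short genes or the farthest member. These were a-factor maturation, MAPK phosphatases, filamentous growth, pentose phosphate, coenzyme Q and hexose transporters. The GCN control, sulfur, ergosterol, silencing, vacuolar sorting and subtelomeric lists did so too. Leaving out near-identical copies and the counts of promoter motifs were not run, since no sequences were used here. Signal over background was not used, so values of dim spots could not be told from those of bright ones.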
